A study of Mus musculus with 6 samples.

Results

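The S100, annexin, *Ahnak* and *Cd44* genes were described in T cells of the mouse spleen sorted as CD4+Lrig1+ or CD4+Lrig1-. The 10 genes, taken by symbol from 45777 genes listed, were *S100a4*, *S100a6*, *S100a10*, *S100a11*, *Anxa1*, *Anxa2*, *Anxa5*, *Anxa6*, *Ahnak* and *Cd44*, and the counts of each were summed over its transcripts. Both groups were sorted by flow cytometry from female C57BL/6 mice, an inbred laboratory strain, at 7 weeks of age, with no treatment or engineered allele named in the labels. CD4+Lrig1+ cells carry the surface protein Lrig1, which the study set out to relate to regulatory T (Treg) cells, and CD4+Lrig1- cells do not. The comparison asked how the transcriptomes of these sorted populations differ. The labels list 6 samples, 3 in each group, and the columns that name a group hold 4 libraries, 1 of each group in each of 2 tables, called set 1 and set 2 here. The study describes its data as coming from independent experiments, and the labels do not tie a library to a mouse or an experiment. In a test that does not allow for the set, the p-values measure the spread between these libraries of a group. In a test that allows for the set, they measure how far the difference between the groups varies from set 1 to set 2. Part of either spread may be technical.

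S100 proteins are small calcium-binding proteins of the EF-hand type, and annexins are proteins that bind the phospholipids of membranes in the presence of calcium. Members of the families work in pairs: S100a10 forms a complex with Anxa2 at the plasma membrane, S100a11 binds Anxa1, and Ahnak is a giant scaffold protein that docks on the complex of S100a10 with Anxa2. Cd44 is a surface receptor for hyaluronan, and in mouse T cells a high level of it marks cells that have met antigen.

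RNA was higher in CD4+Lrig1+ than in CD4+Lrig1- T cells within each set, with a call in the test that allows for the set, for 7 of the 10 genes, namely all 4 S100 genes, *Anxa2*, *Ahnak* and *Cd44*. *Anxa1* had less in both sets. *Anxa5* and *Anxa6* differed little. The test that allows for the set called 14.6% of all genes tested higher, and the same test without that allowance called none of the 10. The widest difference was that of *Anxa2*, 3.23-fold within set 1 and 3.23-fold within set 2, and *Cd44* was 2.21-fold and 2.20-fold higher. Over the 10 genes the median log2 ratio was 0.88 in set 1 and 0.87 in set 2, against 0.01 and -0.06 over the 16123 genes left by the filter on low counts. All 10 genes passed that filter.

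The quasi-likelihood test without a term for the set called none of the 10. In edgeR's quasi-likelihood test on all 4 libraries, with Benjamini-Hochberg adjustment over the 16123 genes, 0% of genes were called higher and 0% lower at an adjusted p under 0.05. At an unadjusted p under 0.05 the test counted 4.18% of genes as higher, with *Cd44* as the single one of the 10, and 1.41% as lower, with none of the 10. The unadjusted p of *Cd44* in edgeR's test was 0.0493. DESeq2's Wald test without that term called 263 genes higher and 50 lower, and again none of the 10. With a term for the table that holds each library (called the table block here, with 1 residual degree of freedom), the quasi-likelihood test called 14.6% of genes higher, 7 of the 10 among them, and 12.8% lower, 1 of the 10 among them. These calls were lost when transcripts were tested in place of genes with the same block. None of 45339 transcripts was then called by edgeR (2167 had an unadjusted p under 0.05), and the main transcripts of the 8 genes had adjusted p of 0.881 to 0.889. Their log2 fold changes stayed in the same direction, at 0.63 for *S100a4*, 1.12 for *S100a6*, 0.96 for *S100a10*, 0.89 for *S100a11*, -1.06 for *Anxa1*, 1.67 for *Anxa2*, 2.04 for *Ahnak* and 1.19 for *Cd44*. The median log2 fold change of the 10 genes was 0.87 without the block, 0.87 with it, and -0.18 without the block when the CD4+Lrig1+ library of set 2 was left out. In the text that follows, CPM is the count scaled to the size of the library after TMM normalization, a ratio is CD4+Lrig1+ over CD4+Lrig1-, and its 95% interval is an exact interval that covers counting error only.

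**Figure D1:**
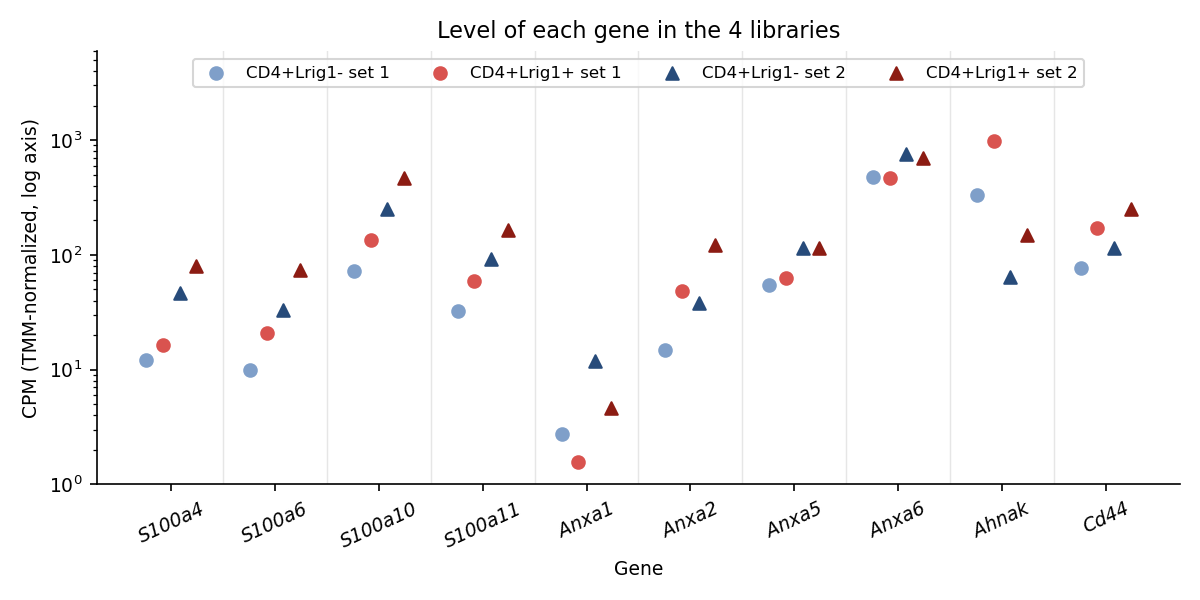
CPM of each gene (y axis, log scale) in the 4 libraries, 1 point per library, with circles for set 1 and triangles for set 2, blue for CD4+Lrig1- and red for CD4+Lrig1+. Within each set the red point lies above the blue one for the 4 S100 genes, *Anxa2*, *Ahnak* and *Cd44*, and for the S100 genes both triangles lie above both circles.

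The libraries held 44865070 to 59977951 estimated counts on genes, and the set separated them more than the group did. The correlation of log2 CPM, over genes rather than replicates, was 0.960 and 0.959 for the 2 libraries of a set and 0.908 for the 2 libraries of a group. *Lrig1* checked the sort, with 75.4 and 36.7 CPM in the CD4+Lrig1- and 221 and 129 CPM in the CD4+Lrig1+ libraries of set 1 and set 2. The 12 T cell markers summed to 5848 to 9532 CPM in the libraries, led by the T cell receptor gene *Trbc2* and by *Cd4*. The 7 Treg cell markers, *Foxp3* and *Ikzf2* the most abundant, moved with the groups. They summed to 257 and 181 CPM in the CD4+Lrig1- libraries and to 2388 and 2209 CPM in the CD4+Lrig1+ libraries, and 7 of the 7 were higher in both sets. In bulk RNA, more cells of a type and more RNA per cell cannot be told apart, and the part of Treg cells in the values of the 10 genes was not tested.

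The 4 S100 genes lie on chromosome 3 of GRCm38 in 2 pairs. Another S100 gene, *S100a5*, lies between *S100a4* and *S100a6* and held 0 counts in every library. *S100a4* (gene ID 20198, 90603770 to 90606045) is 6.85 kb from *S100a6* (gene ID 20200, 90612894 to 90614414), and *S100a11* (gene ID 20195, 93520496 to 93526288) is 28.8 kb from *S100a10* (gene ID 20194, 93555117 to 93564645), with 2906 kb between the pairs. *S100a4*, which binds nonmuscle myosin and is linked to cell motility, had 12.1 CPM in the CD4+Lrig1- and 16.4 CPM in the CD4+Lrig1+ library of set 1, and 46.5 and 79.7 CPM in those of set 2. Its log2 ratio was 0.44 in set 1 (95% interval 0.28 to 0.59) and 0.78 in set 2 (0.71 to 0.85), so the smallest rise of the 4 was also the one that differed between the sets beyond counting error. *S100a6*, also called calcyclin, had 9.94 and 20.7 CPM in set 1 and 33.0 and 73.3 CPM in set 2, again CD4+Lrig1- first. Its log2 ratios were 1.06 (0.90 to 1.21) and 1.15 (1.07 to 1.23).

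*S100a10*, the partner of *Anxa2*, had the most counts of the 4. It had 72.9 CPM in the CD4+Lrig1- and 134 CPM in the CD4+Lrig1+ library of set 1, and 250 and 465 CPM in those of set 2. Its log2 ratios of 0.87 (0.81 to 0.93) and 0.89 (0.86 to 0.92) lay within each other's counting error. *S100a11*, the partner of *Anxa1*, had 32.2 and 59.4 CPM in set 1 and 92.9 and 166 CPM in set 2, with log2 ratios of 0.88 (0.80 to 0.97) and 0.84 (0.79 to 0.89). A pseudogene, *S100a11-ps*, held 1 count in the CD4+Lrig1+ library of set 1 and 0 in the other libraries. For all 4 genes the CD4+Lrig1- library of set 2 lay above the CD4+Lrig1+ library of set 1, so the groups overlapped across sets although they were apart within each.

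All 4 S100 genes rose in the table block. The log2 fold changes were 0.62 ± 0.11 (SE) for *S100a4*, 1.11 ± 0.09 for *S100a6*, 0.88 ± 0.08 for *S100a10* and 0.86 ± 0.07 for *S100a11*, with adjusted p of 0.00529, 1.87e-04, 2.53e-04 and 1.90e-04 in edgeR's quasi-likelihood test. Without the block the adjusted p was 0.9998 for each, with log2 fold changes of 0.71 ± 1.05, 1.13 ± 0.91, 0.89 ± 0.93 and 0.85 ± 0.79 in the same order. The 4 genes together took 0.0136% and 0.0381% of the counts of the CD4+Lrig1- libraries of set 1 and set 2, and 0.0247% and 0.0759% of those of the CD4+Lrig1+ libraries. When the CD4+Lrig1+ library of set 2 was left out, the fits without the block gave -0.85, -0.06, -0.28 and -0.08.

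Of the annexins, *Anxa2* (gene ID 12306, chromosome 9 from 69453683 to 69491792) differed most. It had 15.0 CPM in the CD4+Lrig1- and 48.2 CPM in the CD4+Lrig1+ library of set 1, and 38.0 and 123 CPM in those of set 2. Both CD4+Lrig1+ libraries therefore lay above both CD4+Lrig1- libraries, which held for 2 of the 10 genes (*Anxa2* and *Cd44*) and for 14.3% of all genes tested. The means were 85.5 ± 52.8 CPM (SD, n = 2) in CD4+Lrig1+ and 26.5 ± 16.3 CPM (SD, n = 2) in CD4+Lrig1- T cells. The log2 ratio was 1.69 in set 1 (1.57 to 1.81) and 1.69 in set 2 (1.62 to 1.76). In the table block *Anxa2* rose by 1.69 ± 0.08 on the log2 scale (adjusted p = 1.80e-05, edgeR), and without the block its adjusted p was 0.9998.

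*Anxa1* (gene ID 16952, chromosome 19 from 20373434 to 20390671), an anti-inflammatory annexin that acts through formyl peptide receptors, went the other way. It was the least abundant of the 10, with 131 counts (2.74 CPM) in the CD4+Lrig1- and 82 counts (1.58 CPM) in the CD4+Lrig1+ library of set 1, and 646 counts (12.0 CPM) and 268 counts (4.67 CPM) in those of set 2. Its log2 ratio was -0.80 in set 1 (-1.21 to -0.39) and -1.36 in set 2 (-1.57 to -1.15). It fell in the table block, with a log2 fold change of -1.11 ± 0.21 (adjusted p = 0.00747, edgeR), but missed the threshold in limma on log2(FPKM + 1) with that block (adjusted p = 0.0689), and without the block edgeR's adjusted p was 0.9998. Without the block and without the CD4+Lrig1- library of set 2 its log2 fold change was 0.20. The 8 neutrophil markers, *S100a9* and *S100a8* the most abundant, moved in the same direction in set 2. They summed to 8.44 and 7.00 CPM in the CD4+Lrig1- and CD4+Lrig1+ libraries of set 1 and to 70.8 and 29.8 CPM in those of set 2, with 5 of the 8 lower in CD4+Lrig1+ in both sets, 0 higher in both and 0 at 0 in every library. Their part in the values of *Anxa1* was not tested.

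*Anxa5* and *Anxa6* were not called. *Anxa5* (gene ID 11747, chromosome 3 from 36448923 to 36475887), the protein used to stain phosphatidylserine on dying cells, had 54.6 and 63.4 CPM in set 1 and 115 and 116 CPM in set 2, CD4+Lrig1- first. Its log2 ratios were 0.22 (0.14 to 0.29) and 0.01 (-0.04 to 0.06), and the table block gave 0.11 ± 0.08 with an adjusted p of 0.350 in edgeR. *Anxa6* (gene ID 11749, chromosome 11 from 54978953 to 55033471), an annexin with a duplicated core, had 478 and 467 CPM in set 1 and 760 and 703 CPM in set 2. Its log2 ratios were -0.03 (-0.06 to -0.01) and -0.11 (-0.13 to -0.09), and the table block gave -0.07 ± 0.09 with an adjusted p of 0.616. Both had an adjusted p of 0.9998 without the block.

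*Ahnak* (gene ID 66395, chromosome 19 from 8989284 to 9076935) was higher in CD4+Lrig1+ within both sets but at very different levels. It had 331 CPM in the CD4+Lrig1- and 987 CPM in the CD4+Lrig1+ library of set 1, and 64.7 and 150 CPM in those of set 2. The CD4+Lrig1- library of set 1 thus lay above the CD4+Lrig1+ library of set 2. Its log2 ratio was 1.57 in set 1 (1.55 to 1.60) and 1.21 in set 2 (1.16 to 1.27), a gap beyond counting error. In the table block it rose by 1.40 ± 0.11 on the log2 scale (adjusted p = 1.63e-04, edgeR). Without the block the log2 fold change was 1.52 ± 1.27 (adjusted p = 0.9998), and it was -0.40 when the CD4+Lrig1+ library of set 1 was left out.

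*Cd44* (gene ID 12505, chromosome 2 from 102811141 to 102901669) had 77.0 CPM in the CD4+Lrig1- and 170 CPM in the CD4+Lrig1+ library of set 1, and 115 and 253 CPM in those of set 2. The groups did not overlap. The means were 211 ± 58.5 CPM (SD, n = 2) in CD4+Lrig1+ and 96.0 ± 26.8 CPM (SD, n = 2) in CD4+Lrig1- T cells. The log2 ratios of 1.14 (1.09 to 1.20) and 1.14 (1.09 to 1.18) were alike within counting error. In the table block *Cd44* rose by 1.14 ± 0.07 on the log2 scale (adjusted p = 7.02e-05, edgeR), and without the block the log2 fold change was 1.14 ± 0.41 with an adjusted p of 0.890.

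**Figure D2:**
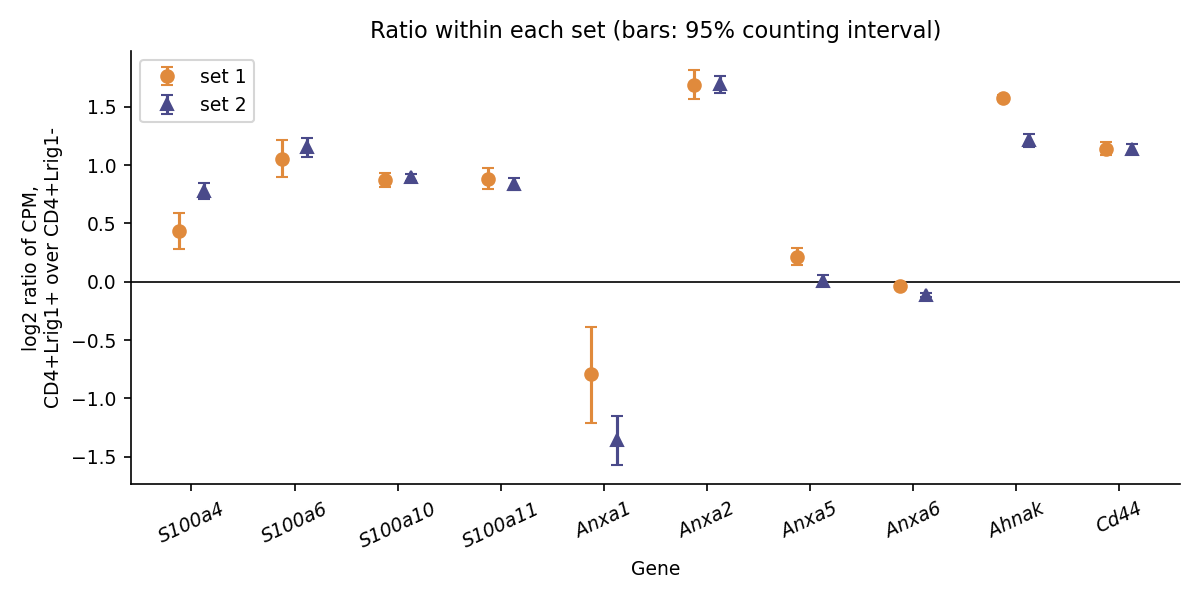
Log2 ratio of CPM between the groups, CD4+Lrig1+ over CD4+Lrig1-, for each gene within set 1 (circles) and set 2 (triangles), with bars for the 95% counting interval, which for abundant genes are smaller than the symbol. *Anxa2*, *Cd44*, *S100a10* and *S100a11* have nearly the same ratio in both sets. The intervals of *S100a4*, *Anxa5*, *Anxa6* and *Ahnak* do not overlap between the sets, and *Anxa1* lies below 0 in both.

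Counted without a test, 8 of the 10 genes were higher in CD4+Lrig1+ in both sets, as were 36.5% of all genes tested, and 2 were lower in both (*Anxa1* and *Anxa6*), as were 41.3%. At least 1.5-fold higher in both sets were 6 of the 10, against 11.7% of all genes, with *S100a4* short of that fold in set 1 at 1.35 and *Anxa5* in both. At least 1.5-fold lower in both was 1 of the 10 (*Anxa1*), against 7.02%. The 10 genes together took 0.116% and 0.138% of the counts of the CD4+Lrig1- libraries and 0.212% and 0.206% of those of the CD4+Lrig1+ libraries, in set 1 and set 2.

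Levels of different genes were compared by FPKM, fragments scaled by the length of the transcript and by the mapped fragments of the library. *S100a10*, *Anxa6* and *S100a11* were the highest 3 of the 10 in every library. *S100a10* had 107 and 321 FPKM in the CD4+Lrig1- and 197 and 643 FPKM in the CD4+Lrig1+ libraries of set 1 and set 2, *Anxa6* had 173 and 241 and 169 and 239 FPKM, and *S100a11* had 61.0 and 155 and 113 and 297 FPKM. *S100a10* and *Anxa6* changed places between libraries, with *Anxa6* the higher in the CD4+Lrig1- library of set 1 and *S100a10* in the others, so their order was not settled beyond the spread between libraries. The levels of *Anxa5*, *S100a4*, *Cd44*, *S100a6* and *Anxa2* lay between 10.4 and 144 FPKM and their order differed between the sets. *Ahnak* ranked 4 in the CD4+Lrig1+ library of set 1 at 55.6 FPKM and last in the CD4+Lrig1- library of set 2 at 3.74 FPKM. *Anxa1* was the lowest in the other libraries, at 1.08 to 3.02 FPKM. Of the genes with an FPKM above 0, *S100a10* exceeded 97.7% to 99.3% in each library and *Anxa1* exceeded 42.2% to 65.2%.

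The partners did not move in step. *S100a10* had 10.2 and 13.8 times the FPKM of *Anxa2* in the CD4+Lrig1- libraries of set 1 and set 2, and 5.89 and 8.03 times in the CD4+Lrig1+ libraries. *S100a11* had 32.5 and 21.4 times the FPKM of *Anxa1* in the CD4+Lrig1- libraries and 105 and 98.3 times in the CD4+Lrig1+ libraries. *S100a4* and *S100a6* stood at a ratio of 1.75 and 2.03 in the CD4+Lrig1- and of 1.14 and 1.56 in the CD4+Lrig1+ libraries.

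The difference between the sets went with the length of the transcript. For genes whose main transcript is shorter than 1000 nucleotides, the median log2 CPM of set 2 minus set 1 was 1.02 in CD4+Lrig1- and 0.95 in CD4+Lrig1+, for those of 2000 to 4000 nucleotides 0.06 and -0.00, and for the 104 genes of 16000 nucleotides or more -2.66 and -2.79. The 4 S100 transcripts, of 499 to 719 nucleotides, were 1.48 to 2.28 higher in set 2 on this scale. *Ahnak*, of 18100 nucleotides, stood at -2.36 in CD4+Lrig1- and -2.72 in CD4+Lrig1+. *Cd44*, of 4409 nucleotides, stood at 0.58 and 0.57, above the medians of -0.51 and -0.61 for genes of 4000 to 8000 nucleotides. Within a set, the median log2 ratio between the groups lay between -0.22 and 0.08 in each length class. The part of transcript length in the difference between the sets was not tested.

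**Figure D3:**
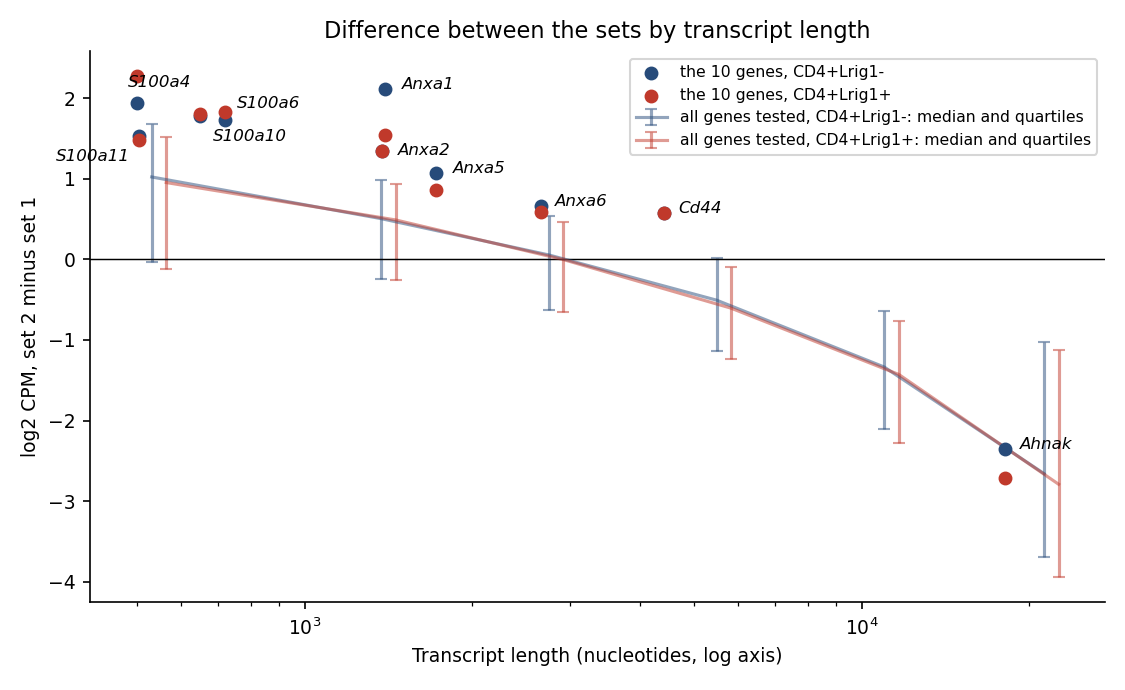
Log2 CPM of set 2 minus set 1 (y axis) against transcript length (x axis, log scale), in blue for CD4+Lrig1- and red for CD4+Lrig1+. Lines join the medians of all genes tested in 6 length classes, with bars for the quartiles and the last class open-ended, and points are the 10 genes, which fall from the short S100 genes near 2 at the left to *Ahnak* below -2 at the right.

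The tables list transcripts, so the forms that carried each gene's counts can be named, as shares that StringTie estimated among forms that share most of their bases. *S100a6*, *Anxa1* and *Anxa5* are listed with 1 transcript each. The reference transcript of *S100a4* took 97.6% to 99.7% of its counts and that of *S100a11* took 98.1% to 99.1%. A longer predicted form of *S100a10*, X1, of 827 nucleotides against 650, held 187 of 3492 counts in the CD4+Lrig1- library of set 1 (5.36%, 95% Wilson interval 4.66 to 6.15) and 89 of 6950 in the CD4+Lrig1+ library (1.28%, 1.04 to 1.57). In set 2 it held 5.60% (5.23 to 6.00) and 2.29% (2.12 to 2.48). The share of this form was thus lower in CD4+Lrig1+ in both sets, and so were its counts, while the gene's total was higher. The predicted form X1 of *Anxa2* went the other way, with 1.54% (0.86 to 2.73) and 3.99% (3.29 to 4.83) of the counts in set 1 and 1.07% (0.71 to 1.62) and 3.90% (3.47 to 4.38) in set 2, CD4+Lrig1- first. These intervals cover counting error only.

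*Anxa6* was split between 2 coding forms that differ by 1 short exon, shown here because it is the base difference that the shares turn on. The exon is number 21 of 26 in variant 1, lies in the coding sequence and spans 18 bases, chr11:54987051-54987068 on the minus strand of GRCm38. The sequences are from the GENCODE transcripts of that build, 5′ to 3′, with 24 bases of the exons on either side in lower case and the exon itself in capitals.
Anxa6 variant 1: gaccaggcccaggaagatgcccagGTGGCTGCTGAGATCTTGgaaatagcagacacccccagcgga
Anxa6 variant 2: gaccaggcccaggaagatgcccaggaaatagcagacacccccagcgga
Variant 1, with the exon, held 41.0% of the *Anxa6* counts in the CD4+Lrig1- and 53.9% in the CD4+Lrig1+ library of set 1, and 36.5% and 38.4% in those of set 2. Variant 2, without it, held 56.2% and 42.8% in set 1 and 62.1% and 60.4% in set 2. The share of the longer form was higher in CD4+Lrig1+ in both sets, by amounts that differed between them, while the total of the gene differed little.

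*Cd44* has 10 variable exons in variant 1, the longest form listed, that its standard form skips. The junction of that standard form, variant 3, is shown beside the corresponding junction of variant 1, in which the same exon 5 is joined to the first variable exon. Both are on the minus strand of chromosome 2 and from GENCODE, with the last 24 bases of exon 5 in lower case and the first 24 bases of the next exon in capitals.
Cd44 variant 3: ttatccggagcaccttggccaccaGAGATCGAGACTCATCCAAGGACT
Cd44 variant 1: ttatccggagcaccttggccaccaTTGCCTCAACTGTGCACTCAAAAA
Variant 3 held 97.4% of the *Cd44* counts in the CD4+Lrig1- and 96.0% in the CD4+Lrig1+ library of set 1, and 93.4% and 98.9% in those of set 2. Variant 1 held 0, 126, 4 and 52 counts in the CD4+Lrig1- and CD4+Lrig1+ libraries of set 1 and then of set 2. The largest share of any other form was 6.49%, for variant 6 in the CD4+Lrig1- library of set 2. In both sets the standard form thus carried the higher *Cd44* counts of CD4+Lrig1+ T cells.

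For *Ahnak* the forms differed between the sets. Variant 1, the full-length reference form, held 81.6% and 82.5% of the counts in set 1, and 16.3% and 38.4% in set 2, CD4+Lrig1- first. In set 2 the predicted form X2 held 83.1% in CD4+Lrig1- and the predicted form X1 held 50.1% in CD4+Lrig1+. These forms share most of their bases, so the split between them is uncertain and the sum over forms was used above.

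**Figure D4:**
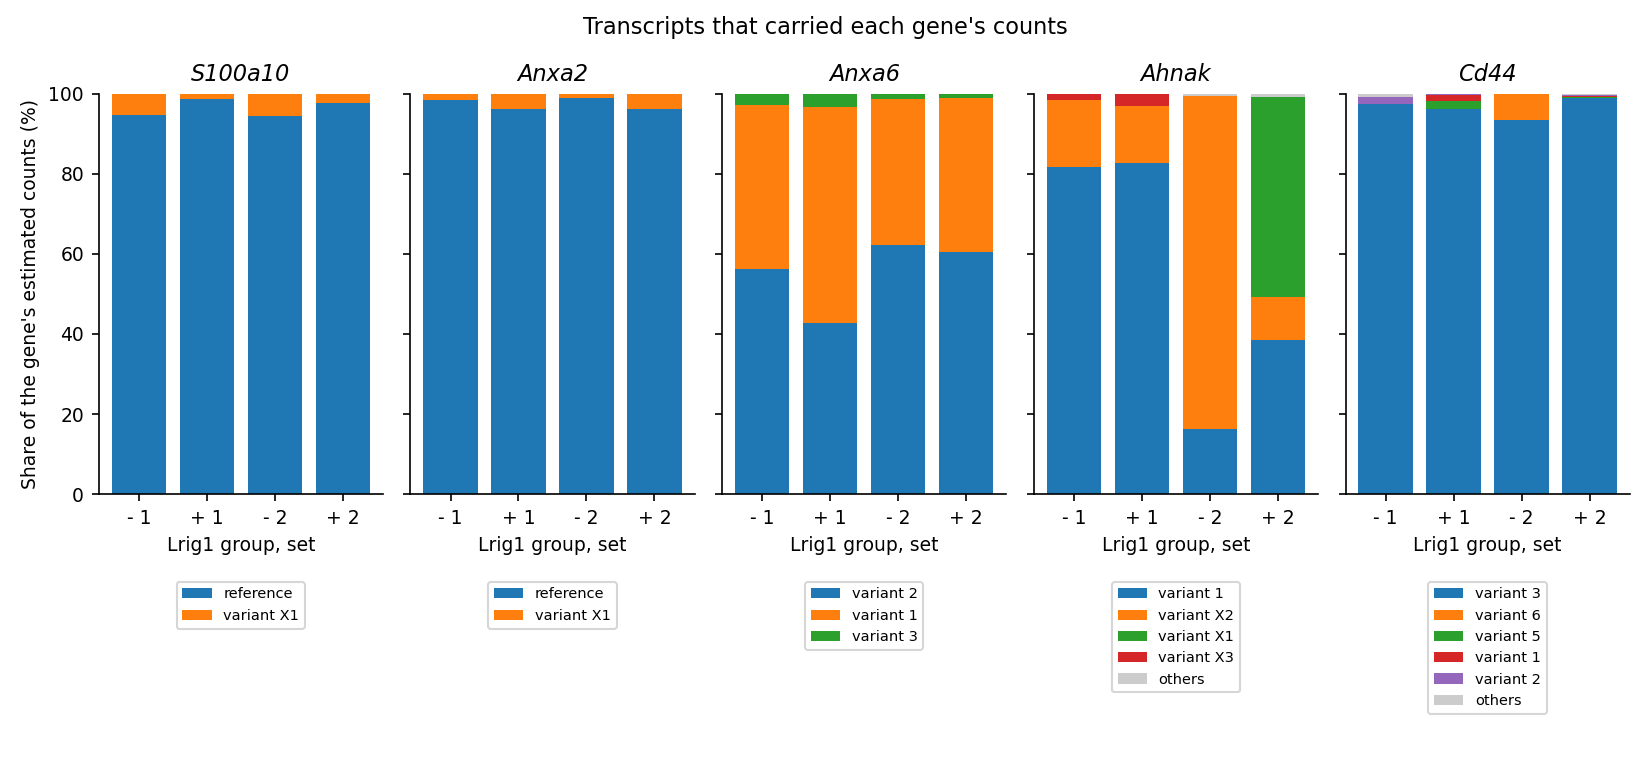
Share of each gene's estimated counts by transcript (y axis, percent) in the 4 libraries (x axis, - or + for the Lrig1 group, then the set), for 5 genes. The main form changes little for *S100a10*, *Anxa2* and *Cd44*, *Anxa6* is split between variants 1 and 2 in every library, and the forms of *Ahnak* in set 2 are unlike those in set 1.

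Promoter sequence was looked at because 7 of the genes moved the same way. RefSeq promoters of GRCm38.p6 were matched for 8 of the 10 genes by symbol, and the 100 bases before the start of each were searched on both strands. The TATA box was looked for as the letters TATAAA. The GC box, bound by Sp1, was looked for as the letters GGGCGG. The site of the AP-1 factors was looked for as TGAGTCA, and the letters CCAAT were searched too. No matches overlapped. The motifs were chosen after the values of the genes were known. The 5 promoters that hold any of them are shown 5′ to 3′ on the strand of the gene, with every match, on either strand, in capitals.
S100a4, chr3:90603670-90603769, plus strand: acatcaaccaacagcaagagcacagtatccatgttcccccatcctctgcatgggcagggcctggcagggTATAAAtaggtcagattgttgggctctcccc
S100a11, chr3:93520396-93520495, plus strand: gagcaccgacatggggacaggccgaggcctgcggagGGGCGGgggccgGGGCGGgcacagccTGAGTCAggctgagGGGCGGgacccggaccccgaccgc
Anxa2, chr9:69453583-69453682, plus strand: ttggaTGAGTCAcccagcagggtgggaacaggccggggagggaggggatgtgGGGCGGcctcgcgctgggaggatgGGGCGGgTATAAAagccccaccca
Ahnak, chr19:8989184-8989283, plus strand: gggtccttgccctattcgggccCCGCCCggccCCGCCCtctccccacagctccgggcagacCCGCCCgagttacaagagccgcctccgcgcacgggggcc
Anxa1, chr19:20390672-20390771, minus strand: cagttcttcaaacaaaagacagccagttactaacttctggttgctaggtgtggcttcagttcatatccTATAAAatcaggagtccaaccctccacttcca
TATAAA was found in 3 of the 8 (*S100a4*, *Anxa1* and *Anxa2*) and in 5.56% of all 32851 promoters over the same length. GGGCGG was found in 3 (*S100a11*, *Anxa2* and *Ahnak*) and in 24.7% of all, TGAGTCA in 2 (*S100a11* and *Anxa2*) and in 1.88% of all, and CCAAT in 0 of the 8 and in 18.9% of all. TATAAA was shared by *Anxa2*, which rose, and *Anxa1*, which fell. No motif was common to the 6 genes that rose and have a promoter entry, and *S100a6*, *Anxa5* and *Cd44* held none of the 4 in this window.

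Of the other S100 genes, 5 of 14 passed the filter on low counts. Over all genes tested, the table block called 14.6% higher and 12.8% lower. 1 rose in the table block, *S100a13*, which takes part in the release of some secreted proteins, with 11.2 and 17.0 CPM in set 1 and 48.4 and 61.4 CPM in set 2 (adjusted p = 0.0133, edgeR). 1 fell, *S100a8*, with 0.961 and 0.712 CPM in set 1 and 19.8 and 8.79 CPM in set 2 (adjusted p = 0.0137), and its partner *S100a9* missed the threshold (adjusted p = 0.0942). *S100a8* and *S100a9* form calprotectin, the main calcium-binding protein of neutrophils, and are also in the neutrophil marker list. *S100a3* and *S100a1* held 9 to 36 counts in each library and were not called. Of the other annexins, 5 of 8 passed the filter and 1 was called. *Anxa4* rose, with 1.90 and 5.38 CPM in set 1 and 4.28 and 11.2 CPM in set 2 (adjusted p = 9.46e-04). The more abundant *Anxa7*, with 47.4 and 52.1 CPM in set 1 and 73.2 and 78.7 CPM in set 2, and *Anxa11*, with 76.6 and 76.1 and 104 and 103 CPM, were not called. The median log2 fold change in the table block was 0.26 over the other S100 genes and 0.71 over the other annexins tested, against -0.04 over all genes tested. The 0.71 was the value of *Anxa9*, which held 15 to 47 counts in each library and was not called. Within set 1 and set 2 the median log2 ratio was 0.14 and 0.15 over these annexins and 0.44 and 0.08 over the other S100 genes.

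Of 25 receptors, ligands and binding partners of the 10 genes, 19 passed the filter, 5 rose and 2 fell in the table block (14.6% and 12.8% over all genes tested), with a median log2 fold change of 0.46. *Srgn*, the proteoglycan serglycin, had 131 and 241 CPM in set 1 and 382 and 781 CPM in set 2 (adjusted p = 3.29e-04, edgeR). *Spp1*, or osteopontin, had 0 and 54 counts in set 1 and 3 and 285 counts in set 2 (adjusted p = 2.47e-04). *Cemip2*, a surface enzyme that degrades hyaluronan, had 5.85 and 19.8 CPM in set 1 and 4.67 and 12.7 CPM in set 2 (adjusted p = 2.24e-04), and *Hyal2*, a hyaluronidase, also rose (adjusted p = 0.0143).

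The RNAs for proteins that bind the tail of Cd44 differed in direction. *Ezr* (ezrin) and *Msn* (moesin) fell, *Msn* from 1380 to 1142 CPM in set 1 and from 2117 to 1456 CPM in set 2 (adjusted p = 0.0413), and *Ezr* from 474 to 383 and from 547 to 416 CPM (adjusted p = 0.0228). Their relative *Rdx* (radixin) was not called (adjusted p = 0.394). *Nf2* (merlin), which competes with them for Cd44, rose from 85.7 to 116 and from 41.0 to 57.6 CPM (adjusted p = 0.00339). The receptors *Fpr1* and *Fpr2* of Anxa1 and *Ager* and *Tlr4* of S100 proteins were not called.

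Other genes of activated and memory T cells went in both directions. Of 25 other such genes, all of which passed the filter, 9 rose, 8 fell and 8 were not called in the table block, where 14.6% of all genes were called higher and 12.8% lower, with a median log2 fold change of -0.10. The genes that rose were *Lgals1*, *Vim*, *Capg*, *Itgb1*, *Itgal*, *Il2rb*, *Cxcr3*, *Klrg1* and *Icos*. *Il2rb*, the beta chain of the interleukin-2 receptor, had 287 and 1030 CPM in set 1 and 246 and 1060 CPM in set 2. *Itgb1*, an integrin chain, had 168 and 470 and then 240 and 706 CPM, and *Lgals1*, galectin-1, had 26.9 and 49.9 and then 123 and 224 CPM. The genes that fell included *Tagln2*, *Cxcr6*, *Ccr2*, *Id2*, *Ly6c2*, *Fasl* and *Il18r1*. *Ccr2*, a chemokine receptor, had 28.7 and 7.75 CPM in set 1 and 45.1 and 11.4 CPM in set 2, and *Id2*, a regulator of effector T cells, had 126 and 64.7 and then 154 and 73.3 CPM. The abundant integrin chains *Itga4* and *Itgb7* were not called (adjusted p = 0.105 and 0.518).

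All 13 naive T cell genes passed the filter and fell in the table block, where 12.8% of all genes tested were called lower. Their median log2 ratio was -0.72 in set 1 and -1.12 in set 2, against 0.01 and -0.06 over all genes tested. *Tcf7* and *Satb1*, transcription factors of naive T cells, had log2 fold changes of -0.71 (adjusted p = 0.00363) and -1.60 (adjusted p = 1.52e-04) in edgeR's table block, and those of *S1pr1* and *Igfbp4* were -0.83 and -2.33 (adjusted p = 0.00105 and 2.25e-04). Without the block, edgeR's quasi-likelihood test called 0 of the 67 genes tested in these 5 lists. Before adjustment, 5 of the 67 were higher and 9 lower at p under 0.05 in edgeR, against 4.18% and 1.41% of all 16123 genes. DESeq2's Wald test without the block called 2 of the 67 higher and 3 lower, against 263 and 50 of the 16123.

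**Figure D5:**
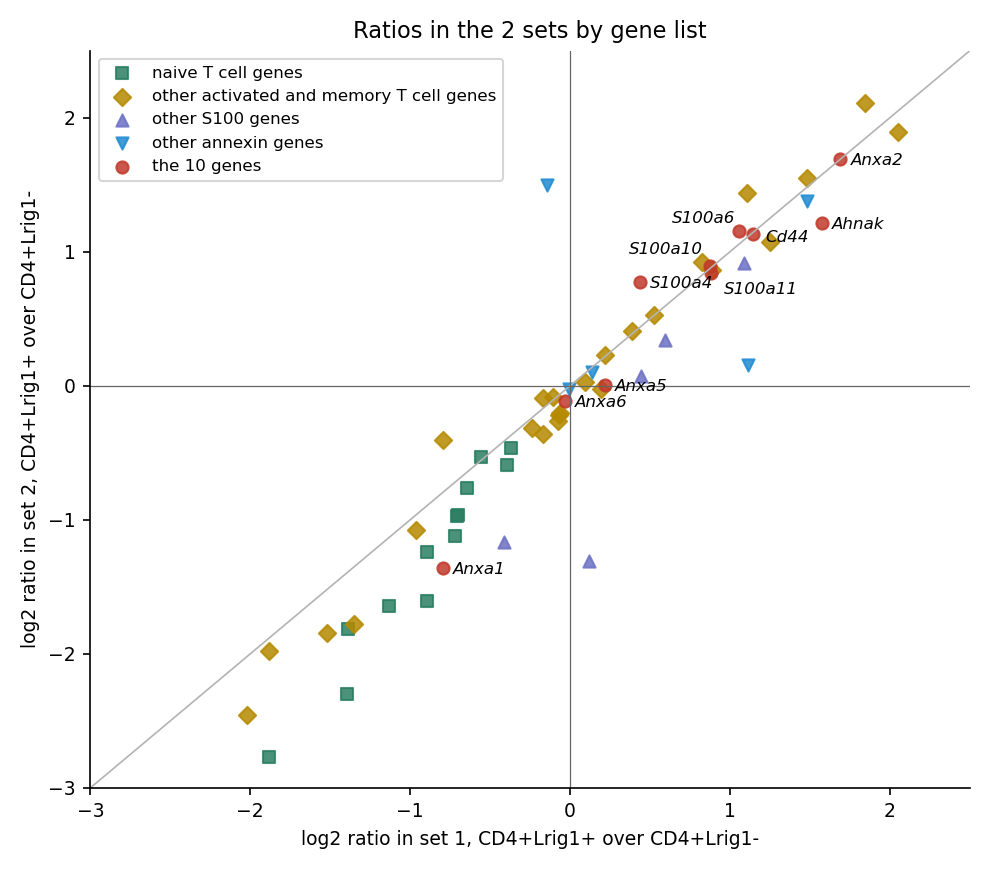
Log2 ratio between the groups (CD4+Lrig1+ to CD4+Lrig1-) in set 1 (x axis) and set 2 (y axis), 1 point per gene, for the 10 genes (red circles, named) and 4 of the gene lists, with the line of equal ratios in grey. The naive T cell genes lie below 0 in both sets, the other activated and memory genes lie at both ends, and *Anxa1* lies among the genes that were lower in CD4+Lrig1+.

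S100 and annexin genes are also expressed by myeloid cells, so markers of other cells were summed. The 12 monocyte and macrophage markers, *Cybb* and *Lyz2* the most abundant, came to 77.6 and 102 CPM in the CD4+Lrig1- and CD4+Lrig1+ libraries of set 1 and to 323 and 318 CPM in those of set 2. Of these 12 markers, 6 were higher and 2 lower in both sets. The 12 B cell markers came to 80.8 and 100 CPM in set 1 and 820 and 410 CPM in set 2, with 8 lower in CD4+Lrig1+ in both sets and 0 higher. The plasma cell (4 markers), NK cell (6) and CD8 T cell (2) sums were lower in CD4+Lrig1+ than in CD4+Lrig1- in set 2, at 55.0 against 110, 70.6 against 97.8 and 51.6 against 97.3 CPM. In set 1 they were 4.56 against 4.53, 31.8 against 30.0 and 14.1 against 19.5 CPM. Of the 6 NK cell markers, 5 were lower in CD4+Lrig1+ in both sets and 1 was higher. In set 1 *Klrb1c* had 6.29 against 21.9 CPM and *Eomes* 24.1 against 4.20 CPM. For plasma cells 2 of 4 and for CD8 T cells 2 of 2 markers were lower in both sets, with 0 higher. The 7 dendritic cell markers came to 91.8 and 48.1 CPM in set 1 and 124 and 77.5 CPM in set 2, CD4+Lrig1- first. Of these 7 markers, 6 were lower in CD4+Lrig1+ in both sets and 1 was higher. The 6 erythroid markers came to 9.34 and 9.27 and then 96.1 and 84.6 CPM, and the 5 platelet markers to 0.130 to 3.01 CPM, with *Ppbp* and *Gp9* at 0 in every library. The part of these cells in the values of the 10 genes was not tested.

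Of 4254 genes with a mean of at least 50 CPM, the 5 whose pattern over the 4 libraries was nearest to the mean pattern of the 10 genes were *Gimap7*, *Gapdh*, *Ctsz*, *Blmh* and *Rnh1*, at distances of 0.0951 to 0.126 (Euclidean distance between log2 CPM centred on the gene's own mean). Each of the 10 lay farther from that mean than these 5 genes, from 0.545 for *S100a11* to 3.61 for *Ahnak*.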

How the data were processed

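RNA of CD4+ T cells of the spleen, sorted by Lrig1, was made into stranded mRNA libraries and sequenced. Per the labels, the authors' processing notes name Trimmomatic 0.38, Bowtie2 2.3.4.1, HISAT2 2.1.0, StringTie 2.1.3b and the build GRCm38. The authors deposited, for each of 129299 transcripts and each library, an estimated count, which is not normalized, an FPKM value, which is scaled by transcript length and mapped fragments, and a TPM value, which was not analysed here. 1 further table with 6 columns of values was not used here, since nothing in its header names a group.

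The estimated counts were rounded and summed per gene symbol. Low genes were removed by filterByExpr (edgeR 4.0.16, R 4.3.3), and the rest were scaled by TMM and tested two-sided by the quasi-likelihood test, with the group as the only term (2 residual degrees of freedom) or with the table block. A prior count of 2 was added for log2 ratios over all genes and the lists. DESeq2 1.42.0 and limma 3.58.1 were used for alternatives, and Python 3.11.15 for summaries. The code was also run on simulated counts with known fold changes. Their difference between the sets did not go with transcript length, unlike that of these data. That run therefore does not show how well the tests perform here. The design was written for 6 libraries, of which 4 could be assigned to a group from their column names.

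The members, gene lists, markers and tests were chosen with earlier results of these data known. The genes named were all members, up to 5 members of each list with the highest mean CPM, any list member called, *Lrig1*, the 2 most abundant markers of each cell type and the 5 genes nearest in pattern, and some list genes are not reported here. Alternatives were another scaling or test, another filter on low counts, FPKM in place of counts, a test of transcripts, leaving immunoglobulin genes out, an adjusted p under 0.1 and leaving out each library in turn. 6 fits that join the table block to another choice were added after seeing the data. With 82 to 268 counts in the CD4+Lrig1+ libraries, *Anxa1* was measured least precisely.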

Additional observations from a re-analysis of the deposited data

How the results depend on the processing

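No paired analysis was possible because the columns carry no replicate numbers, as far as the numbers in the labels go. The table block pairs the 2 libraries of each table instead, and all calls of members rest on it. The table block raised the genes called higher from 0 to 2358 and lower from 0 to 2056, the members called higher from 0 to 7 and lower from 0 to 1, and the genes of the 5 lists called from 0 to 16 higher and from 0 to 24 lower. With the table block, DESeq2's Wald test called 1847 and 1960 genes, limma on log2(FPKM + 1) 1911 and 1016, upper-quartile factors 2624 and 2525, at least 10 counts in every library 2615 and 2669, and an adjusted p under 0.1 2954 and 2824. Each of these 5 called 7 members higher, and each called 1 lower except limma, which called none. They called 16, 16, 17, 17 and 17 list genes higher and 24, 19, 24, 24 and 25 lower. The table block on transcripts in place of genes called 0 of 45339, with 2167 at an unadjusted p under 0.05, so that all member calls were lost (adjusted p 0.881 to 0.903) while every member kept its direction. Without the block, DESeq2's Wald test called 263 genes higher and 50 lower, and 2 and 3 of the lists.

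The median log2 fold change of the members was 0.87 and became 0.90 with upper-quartile factors, 0.91 with at least 10 counts in every library, 0.92 with limma on log2(FPKM + 1) and 0.93 on log2(FPKM + 0.1). With the table block it was 0.85 by DESeq2, 0.92 by limma and 0.89 with at least 10 counts. The cause of these shifts was not tested.

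Leaving out 1 library leaves its group with 1, whose spread is taken from the other group. It gave 1 to 88 genes called higher, 0 to 2 lower, 0 members called in either direction, 0 list genes higher and 0 to 1 lower. The median of the members ranged from -0.18 to 1.64, *S100a4* from -0.85 to 1.99, *S100a6* from -0.061 to 2.25, *S100a10* from -0.28 to 2.04, *S100a11* from -0.082 to 1.82, *Anxa1* from -2.23 to 0.20, *Anxa5* from -0.42 to 0.72, *Anxa6* from -0.41 to 0.30 and *Ahnak* from -0.40 to 3.17, while *Anxa2* (0.86 to 2.52) and *Cd44* (0.82 to 1.46) kept their direction. Over all alternatives, these fits included, 141 log2 fold changes of single members kept their direction and their side of the threshold. A further 39 came to pass it, and 10 changed direction, each of them when a library was left out. The depth limits *Anxa1* most, and 1 residual degree of freedom limits every call of the table block.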
